A study of Mus musculus with 5 samples.

Results

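The genes described here are those that carry the name cilia and flagella associated protein, whose mouse symbols begin with Cfap and a digit. They were taken by symbol from the deposited table, with no measured value used in the choice, and 25 of the 18193 genes that have a probe set of their own were members. All samples were GFP+ cells taken by flow sorting at E17.5 from the embryonic lungs of FOXJ1-GFP mice mated to the outbred ICR strain. The transgene places GFP under the promoter of FOXJ1, a transcription factor of multiciliated cells, so the gate takes cells in which that promoter is active. RNA of 5 biological replicates was amplified and hybridised to 1 Affymetrix array each, and no second group of samples is analysed here, so each gene was described by its level and by its spread between arrays. It is not stated whether different litters gave the replicates, and p-values therefore rest on the spread between these 5 samples. That spread was moderated across probe sets by limma, and the level tested against was taken as fixed.

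Motile cilia and sperm flagella are built on an axoneme of doublet microtubules around a central pair. Dynein arms on the doublets make them slide, and radial spokes couple the doublets to the central pair and help to time the arms. Many Cfap proteins were found through the flagellum of the green alga Chlamydomonas and sit at fixed places in this structure. Some line the lumen of the doublets, some form the projections of the central pair, some tether dyneins or spokes, and others act in the cytoplasm before dynein arms enter the cilium. The name was given for location and not for descent, so the members are not a family of related sequences. Genes of the motile cilium are known targets of RFX factors, which bind an X-box in the promoter, and of FOXJ1, a forkhead factor.

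Promoters were read from RefSeq for 19 of the 25 genes (21 promoters, build GRCm38.p6, 250 bases before the start of the gene and 50 after it). The X-box was searched as GTTNCC and GNAAC with any 3 bases between them, one arm of it as GTTGCC and the forkhead core as TAAACA, each on both strands; the arm can lie inside a full X-box. A full X-box was present in 4 of 19 Cfap genes (21.1%) and in 0.936% of all 27025 genes of the promoter table. The arm was present in 5 of 19 Cfap genes (26.3%) and 14.1% of all genes, and the forkhead core in 3 of 19 (15.8%) and 15.1%. A match is a description of the letters and not of binding. The promoters of Cfap298, Cfap20dc and Cfap45 are shown because they hold a full X-box, that of Cfap161 because it holds 3 copies of the arm, and that of Cfap97d1 because this gene was the one member below the background level. Each line gives the 250 bases before the start, 5′ to 3′ on the strand of the gene, with letters of the X-box or of its arm in capitals.
Cfap298, chr16:90934850-90935099, - strand of GRCm38.p6: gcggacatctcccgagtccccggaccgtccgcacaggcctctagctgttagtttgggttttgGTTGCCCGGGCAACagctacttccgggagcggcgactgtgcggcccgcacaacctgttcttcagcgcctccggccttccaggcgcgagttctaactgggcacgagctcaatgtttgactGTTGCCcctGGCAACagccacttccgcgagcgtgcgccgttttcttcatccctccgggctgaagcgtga
Cfap20dc, chr14:8666291-8666540, - strand of GRCm38.p6: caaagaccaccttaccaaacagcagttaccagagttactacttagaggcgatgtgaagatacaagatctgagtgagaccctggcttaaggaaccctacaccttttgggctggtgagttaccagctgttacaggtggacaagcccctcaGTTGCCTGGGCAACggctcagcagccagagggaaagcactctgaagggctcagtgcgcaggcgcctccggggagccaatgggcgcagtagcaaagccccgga
Cfap45, chr1:172520880-172521129, + strand of GRCm38.p6: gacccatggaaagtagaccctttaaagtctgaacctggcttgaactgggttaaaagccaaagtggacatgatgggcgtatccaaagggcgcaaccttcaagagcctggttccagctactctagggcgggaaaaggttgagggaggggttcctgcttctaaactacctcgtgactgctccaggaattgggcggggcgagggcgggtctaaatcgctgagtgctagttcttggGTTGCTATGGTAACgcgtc
Cfap161, chr7:83794840-83795089, - strand of GRCm38.p6: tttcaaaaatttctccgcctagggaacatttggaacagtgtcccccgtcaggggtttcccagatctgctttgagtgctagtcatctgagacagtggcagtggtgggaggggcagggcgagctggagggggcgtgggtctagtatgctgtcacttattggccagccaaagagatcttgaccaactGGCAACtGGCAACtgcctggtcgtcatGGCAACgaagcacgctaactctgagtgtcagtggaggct
Cfap97d1, chr11:101986806-101987055, + strand of GRCm38.p6: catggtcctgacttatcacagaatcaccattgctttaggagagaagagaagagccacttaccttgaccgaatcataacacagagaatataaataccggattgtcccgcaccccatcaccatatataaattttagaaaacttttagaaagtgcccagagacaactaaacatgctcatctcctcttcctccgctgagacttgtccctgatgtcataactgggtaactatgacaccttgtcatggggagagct

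In Cfap298 the full X-box began 188 bases before the start, and an arm at 69 bases and another at 60 bases before the start faced each other. In Cfap20dc it began 102 bases before the start. In Cfap45 it began 19 bases before the start and was read on the opposite strand. The X-box of Cfap61 lay across the start, from 8 bases before it, and is shown in a window of 30 bases with the X-box in capitals.
Cfap61, chr2:145934768-145934797, + strand of GRCm38.p6: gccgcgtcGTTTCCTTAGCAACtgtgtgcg

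**Figure D1:**
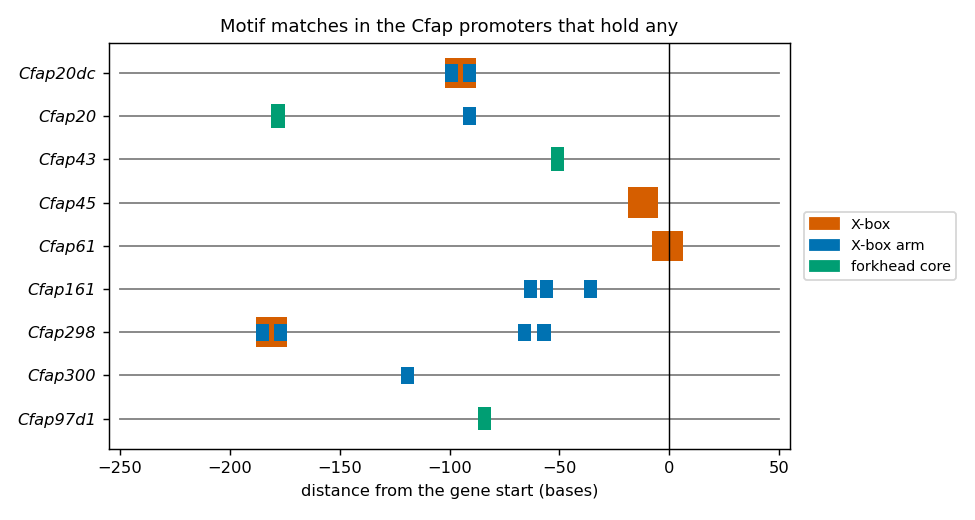
Position of motif matches in the promoters of the 9 Cfap genes that hold any, with distance from the gene start in bases on the horizontal axis and 1 gene per line; boxes mark full X-boxes, X-box arms and forkhead cores. Full X-boxes are drawn in 4 genes, from 188 bases before the start in Cfap298 to across the start in Cfap61.

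Of the 25 Cfap genes, 24 were above background in the sorted cells and 1, Cfap97d1, was not. Values are the deposited log2 signals. Background was set at 7.15 from 148 genes not known from the lung, 76 of chemosensory receptors and 72 restricted to other tissues, as the 95th percentile of their means. A mean was called above it at an adjusted p under 0.05 in limma, one-sided, and 64.4% of all 18193 genes were called. The same 24 members were above the expression cut-off of 5 that the study used, here read as log2, as were 81.3% of all genes. The study applied that cut-off to average expression in arbitrary units, together with a fold change against progenitor cells of an earlier stage. It did so for transcription factors and a few nuclear genes, whereas here the E17.5 means alone were tested. Adjusted p-values of the 24 lay between 4.78e-11 and 7.37e-05 (limma, against background). Their means ran from 8.32 to 14.19, and 18 of the 25 had a mean over 12. The lowest of these 18, Cfap53 at 12.05, had a mean above that of 89.0% of all named genes. Probes differ in how brightly they bind, so levels of different genes are not ranked. In a sorted population, fewer cells of a type and less RNA per cell cannot be told apart.

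**Figure D2:**
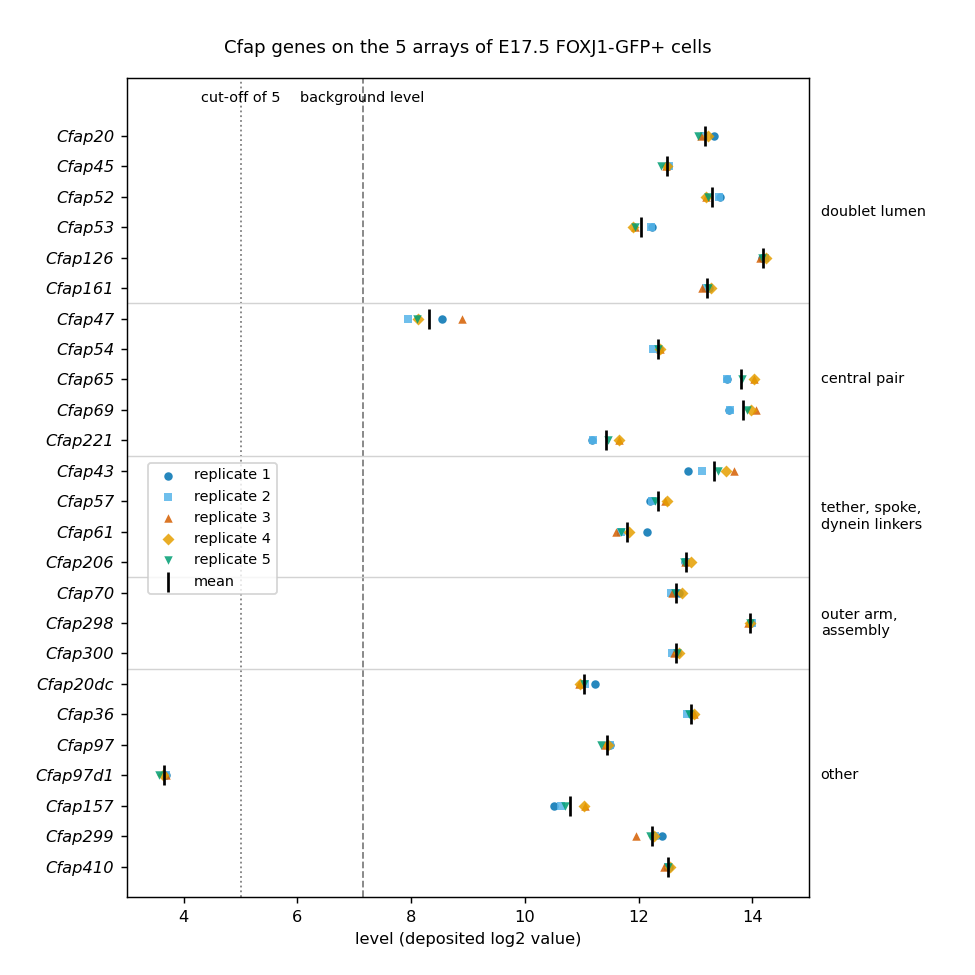
Level of the 25 Cfap genes on each of the 5 arrays, as deposited log2 values on the horizontal axis, with genes grouped by the part of the cilium they are known for; symbols are replicates, the black bar is the mean, the dashed line is the background level and the dotted line the cut-off of 5. Cfap97d1 lies at 3.65 and Cfap47 at 8.32, and the other 23 genes lie between 10.79 and 14.19.

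All 6 members known as proteins of the doublet lumen were above background. Cfap126, also called Flattop, which in the mouse acts in the placing of basal bodies, gave 14.17, 14.23, 14.13, 14.24 and 14.17 in replicates 1 to 5. These values spanned 0.11, and the SD of 0.05 was among the 4 smallest of the 25. Cfap20, a small conserved protein of the inner junction between the tubules of a doublet, was at 13.17 ± 0.11 (SD, n = 5 arrays). Cfap45 and Cfap161, both found inside the doublet, were at 12.49 ± 0.05 and 13.21 ± 0.06. Cfap52, a protein with WD repeats that lies beside Cfap45, gave 13.43, 13.40, 13.18, 13.18 and 13.22, with replicates 1 and 2 above the other arrays. Cfap53, known also for its part in left-right asymmetry, gave 12.24, 12.22, 11.94, 11.89 and 11.94, and replicates 1 and 2 were again the highest.

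All 5 members of the central pair were above background, and this group held both the called gene closest to background and 3 genes with a shared order of arrays. Cfap65 gave 13.55, 13.55, 14.03, 14.03 and 13.82 in replicates 1 to 5. Cfap69, needed for mouse sperm flagella, gave 13.59, 13.61, 14.06, 13.98 and 13.90. Cfap221, first named Pcdp1 after the primary ciliary dyskinesia of its mouse mutant, gave 11.18, 11.19, 11.65, 11.65 and 11.47. In each of these 3 genes replicates 1 and 2 were the lowest arrays, and the gap to the next array, replicate 5, was larger than the gap between replicates 1 and 2. Cfap54, whose loss in mice also gives primary ciliary dyskinesia, did not share this order, at 12.35, 12.25, 12.38, 12.38 and 12.34 (12.34 ± 0.05, SD). Cfap47, an X-linked gene, gave 8.54, 7.94, 8.90, 8.13 and 8.10. It had the largest SD of the members, 0.39, and lay 1.17 above background (adjusted p = 7.37e-05, limma), but below a background set at the 99th percentile, 8.59 (a difference of -0.27).

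The 4 members that tether dyneins or spokes were also above background. Cfap43, which with its partner Cfap44 ties an inner dynein to the doublet, gave 12.87, 13.11, 13.68, 13.54 and 13.39. It had the second largest SD, 0.33, and replicates 1 and 2 were the lowest arrays. Cfap57, a WD repeat protein at the base of inner dyneins, gave 12.20, 12.23, 12.47, 12.49 and 12.29 with the same 2 arrays lowest. Cfap61, part of a calmodulin-containing complex at the spoke base, gave 12.15, 11.68, 11.60, 11.83 and 11.69. Here replicate 1 alone was high. Of the other probe sets of Cfap61, the one at 7.67 was highest in replicate 1 and the one at 7.54 in replicate 3. Cfap206, needed for docking of a radial spoke, was at 12.84 ± 0.05 and spanned 0.13 over the 5 arrays.

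The 3 members of the outer dynein arm and of dynein assembly varied little between arrays on their brightest probe sets. Other probe sets spread more, with an SD of up to 0.46 in Cfap70 and 0.40 in Cfap298, both on probe sets not above background. Cfap298, a cytoplasmic factor needed for dynein arms, gave 13.97, 13.99, 13.92, 13.96 and 13.96. Its SD of 0.03 was the smallest of the members, and 0.418% of all named genes had a smaller one. Cfap300, another factor of dynein arm assembly, gave 12.67, 12.59, 12.62, 12.71 and 12.68. Cfap70, a protein of the outer dynein arm with tetratricopeptide repeats, gave 12.71, 12.57, 12.59, 12.77 and 12.65, an SD of 0.08.

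Of the 7 members with other or less defined roles 6 were above background. Cfap410, a partner of the kinase NEK1 that acts in cilium formation, gave 12.54, 12.51, 12.44, 12.55 and 12.51, an SD of 0.04. Cfap36, a binding partner of the small GTPase ARL3, was at 12.92 ± 0.05. Cfap97 gave 11.50, 11.49, 11.40, 11.46 and 11.33. Cfap20dc, named for a domain like that of Cfap20, gave 11.23, 11.06, 10.95, 10.97 and 11.04. In both of these genes replicates 1 and 2 were the highest arrays. Cfap299 gave 12.42, 12.29, 11.95, 12.27 and 12.21, with replicate 3 the lowest. Cfap157, which in the mouse is a FOXJ1 target needed for the sperm flagellum, gave 10.51, 10.63, 11.06, 11.04 and 10.70, with replicates 1 and 2 the lowest. Cfap97d1, a gene of the sperm flagellum, gave 3.69, 3.69, 3.69, 3.63 and 3.56. All 5 values were below both the background level and the cut-off of 5 (mean -3.49 from background), and this gene has 1 probe set in the table. Its promoter holds a forkhead core, 87 bases before the start, and no X-box.

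Several of the members have more than 1 probe set, which gives a check on each level. Together the 25 genes have 44 probe sets, of which 37 were above background, beside 47.9% of all 45037 probe sets. The 45037 include 9160 that name no gene here and 932 that name several, whereas each of the 44 names 1 gene. Of the 25 genes 13 have a single probe set and 12 several. Of the 19 probe sets that were not the brightest of their gene, 13 were above background as well, and 15 lay more than 2 below the brightest on the log2 scale. All probe sets were above background in 7 of the 12 genes, and in the other 5, Cfap20dc, Cfap57, Cfap70, Cfap97 and Cfap298, some were and some were not. The probe set of Cfap298 used above was at 13.96 and another at 12.96 ± 0.10, while the remaining 2 were at 7.23 ± 0.40 and 6.65 ± 0.21. The second probe set of Cfap57 gave 6.94, 6.81, 7.17, 7.12 and 6.92, a mean of 6.99 that was not above background. That of Cfap70 gave 7.42, 6.96, 6.70, 6.56 and 6.19. Cfap20dc had a probe set at 9.39 ± 0.15 and one at 4.81 ± 0.39, and Cfap97 had one at 7.65 ± 0.19 and one at 6.71 ± 0.66. The last of these spread most of all 44, at 7.42, 7.25, 6.36, 5.81 and 6.71.

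**Figure D3:**
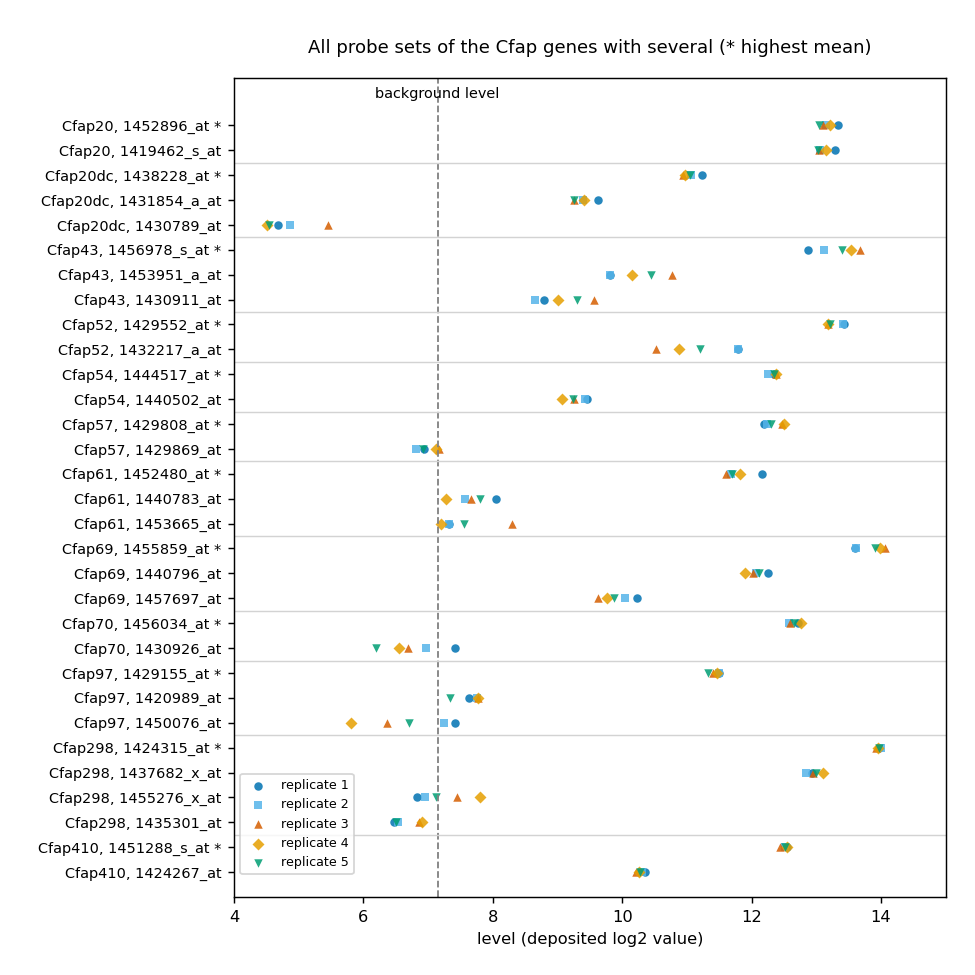
Levels on each array for all probe sets of the 12 Cfap genes with several, as deposited log2 values on the horizontal axis; 1 line per probe set, an asterisk for the one with the highest mean, symbols for replicates and a dashed line at the background level. In 5 genes, Cfap20dc, Cfap57, Cfap70, Cfap97 and Cfap298, some probe sets are called above the line and others are not.

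The order of arrays often differed between the probe sets of a gene. Replicates 1 and 2 were the lowest or the highest pair on the brightest probe set of 7 genes that have several, namely Cfap20dc, Cfap43, Cfap52, Cfap57, Cfap69, Cfap97 and Cfap298. Of their 13 other probe sets 4 had the same order, 3 had the opposite one and 6 had neither, and all probe sets shared the order in 2 genes, Cfap43 and Cfap52. In Cfap43 replicates 1 and 2 were the lowest on all 3 probe sets. The second gave 9.81, 9.81, 10.77, 10.15 and 10.44, and the third 8.79, 8.66, 9.56, 9.01 and 9.30. In Cfap52 replicates 1 and 2 were the highest on both, and the second probe set spread more, at 11.79, 11.80, 10.52, 10.88 and 11.20. In Cfap69 the probe sets did not share an order. Against the values given above, where replicate 3 was the highest, its second probe set gave 12.26, 12.07, 12.02, 11.89 and 12.12 and the other one 10.23, 10.04, 9.63, 9.76 and 9.87, both highest in replicate 1. In Cfap298, where replicates 1 and 2 were the highest on the brightest probe set, they were the lowest on the second, at 12.93, 12.84, 12.95, 13.11 and 12.99, and on the third, at 6.83, 6.95, 7.45, 7.80 and 7.12.

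Over the 25 genes, replicates 1 and 2 were the lowest 2 arrays in 6 and the highest 2 in 7. This order, in one direction or the other, was seen in 13 of 25 Cfap genes (52.0%), beside 37.1% of all named genes and 45.5% of those above background, each read on its brightest probe set. The 6 genes with replicates 1 and 2 lowest were Cfap43, Cfap57, Cfap65, Cfap69, Cfap157 and Cfap221, and the 7 with them highest were Cfap20dc, Cfap45, Cfap52, Cfap53, Cfap97, Cfap298 and Cfap299. Over all named genes replicates 1 and 2 were the lowest in 16.8% and the highest in 20.3%. They were the lowest in 3 and the highest in 0 of the 5 central pair members, and the lowest in 0 and the highest in 3 of the 6 doublet lumen members. Among the other genes listed for these structures they were the lowest in 7 and the highest in 4 of 16 for the central pair, and the lowest in 3 and the highest in 6 of 18 for the doublet lumen, so both orders were found in each. Replicates 1 and 2 were also the most alike of all pairs of arrays (Pearson's r = 0.9944 across probe sets, which are not independent), closely followed by replicates 4 and 5 (r = 0.9943), and replicates 1 and 3 were the least alike (r = 0.9866). The control probe sets for the 3′ and 5′ ends of Gapdh differed by 1.02, 1.03, 1.43, 1.25 and 1.14 in replicates 1 to 5, with the smallest differences in replicates 1 and 2. Those of Actb differed by 0.61, 0.51, 0.68, 0.72 and 0.67, again least in replicates 1 and 2. The part of this end-to-end difference in the order of arrays was not tested.

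**Figure D4:**
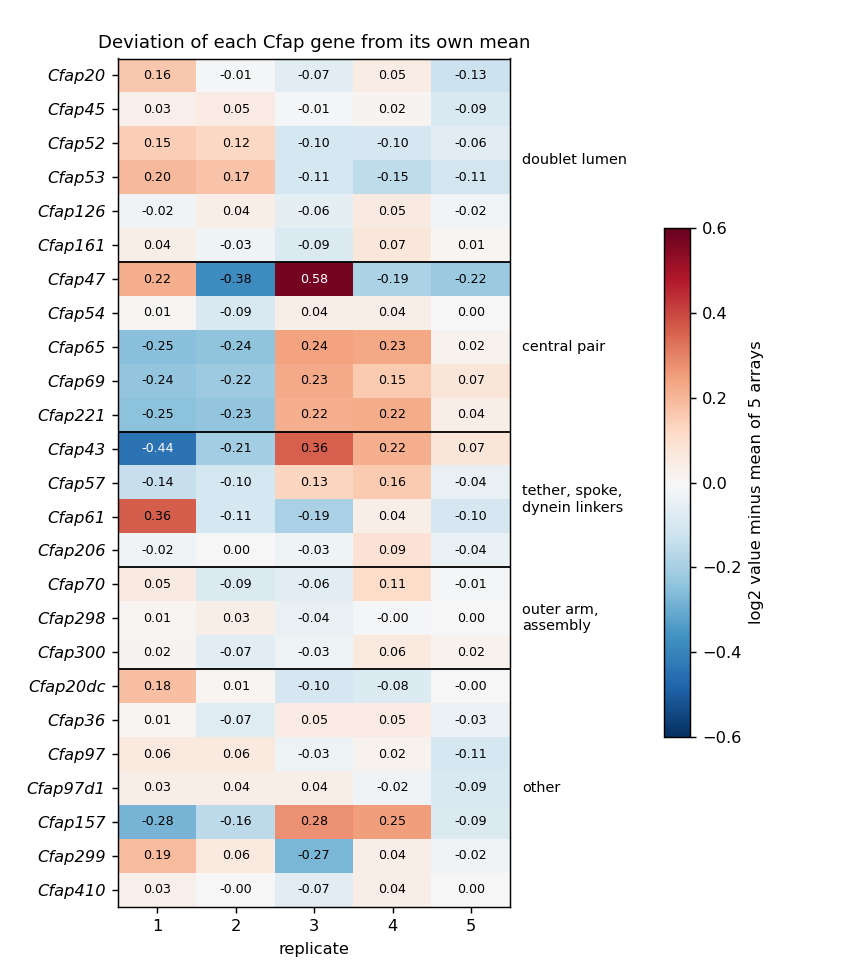
Deviation of each Cfap gene on each array from its own mean over the 5 arrays, in log2 units, with genes in rows by group and replicates in columns; red is above the mean and blue below it. Cfap65, Cfap69, Cfap221 and Cfap43 are blue in replicates 1 and 2, Cfap52 and Cfap53 are red there, and the extremes are the values of Cfap47 in replicate 3 and of Cfap43 in replicate 1.

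The spread of the Cfap genes between arrays was set beside that of all genes and of other genes of cilia. The median SD of the 25 was 0.11, beside 0.17 over all named genes and 0.16 over those above background. Of the 25, 12 had an SD under 0.1, among them Cfap97d1, which was below background. The largest SD of these 12, 0.08 in Cfap70, exceeded that of 11.7% of all named genes. Without replicate 1 the median SD of the 25 was 0.07, beside 0.16 over all named genes. These sets also differed in median level, at 12.51 for the 25, 9.07 for all named genes and 10.47 for those above background. The spread was not compared at matched levels. The median SD was 0.09 for the multiciliated markers, 0.10 for the Ift genes of intraflagellar transport and 0.13 for the listed dynein arm genes. For other lists it was higher, at 0.14 for doublet lumen genes, 0.15 for central pair genes and 0.17 for radial spoke, nexin link and ruler genes. It was 0.17 for the genes named Ccdc and 0.25 for the dynein heavy chains named Dnah. The range between the highest and the lowest array exceeded 0.5 in 4 genes, Cfap43, Cfap47, Cfap61 and Cfap157, and 1 in none of the 25. Ranges were not counted over all genes, but the SDs of these 4 exceeded those of 66.5% (Cfap61) to 92.8% (Cfap47) of them. Averaged over the 24 genes above background, the deviation from the gene's own mean was 0.00, -0.06, 0.04, 0.06 and -0.03 in replicates 1 to 5, a range of 0.12 in which genes that move opposite ways cancel, beside 0.05 over all genes above background. The range was 0.49 for the 5 central pair members, which include Cfap47, and 0.16 for the 6 doublet lumen members. An average over far more genes tends to vary less, so smaller lists are given as well. The range was 0.08 for the multiciliated markers, 0.12 for the Ift genes and 0.13 for the Ccdc genes. For the listed axoneme genes it was 0.16 (dynein arms), 0.16 (radial spokes, nexin link and ruler), 0.18 (doublet lumen) and 0.21 (central pair).

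**Figure D5:**
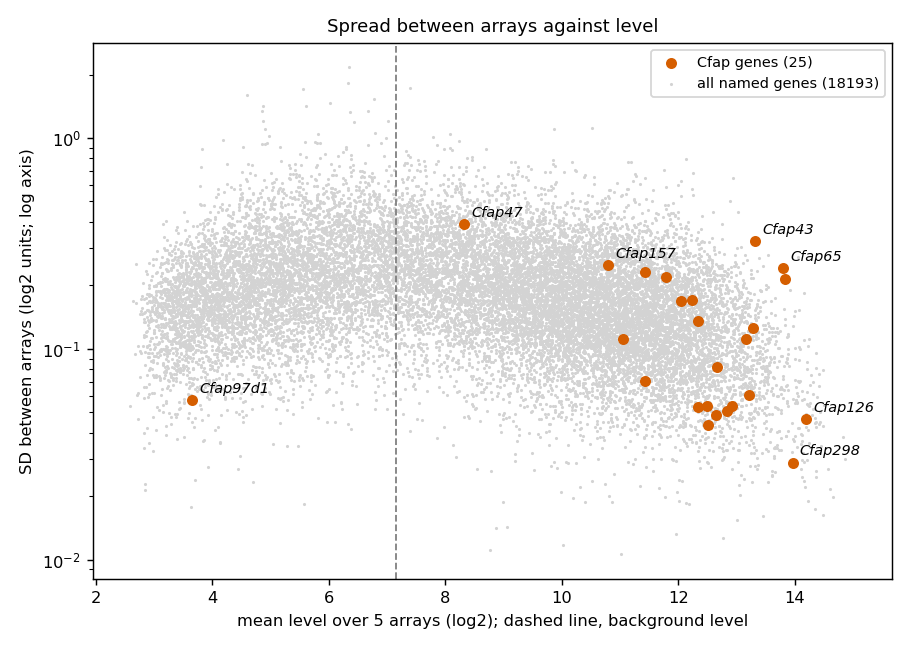
SD between the 5 arrays (log2 units, log axis) against mean level (log2) for the 25 Cfap genes and all 18193 named genes; the dashed line is the background level. Cfap47 (SD 0.39) and Cfap43 (SD 0.33) lie highest among the Cfap genes and Cfap298 (SD 0.03) lowest, and Cfap97d1 is the one Cfap gene left of the dashed line.

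Most of the defining genes of multiciliated cells were above background, and so were many of other lung cells. Of 19 measured multiciliated markers 18 were above background, the exception being the brightest probe set annotated to Spag6, at 3.67 ± 0.13. The study names Spag6 among known ciliated-specific factors and measured it by qRT-PCR in airway cultures. Whether this probe set reads the same transcript was not tested. All 14 alveolar type 2 genes, all 12 alveolar type 1 genes, all 14 endothelial genes, 13 of 16 mesenchymal genes, 9 of 10 neuroendocrine genes and 9 of 12 club and goblet cell genes were above background too, shares over the 64.4% of all named genes. The shares were near or below it for white blood cell genes (10 of 15), basal cell genes (5 of 10) and red blood cell genes (1 of 9). The mean deviation of these lists ranged by 1.13 for alveolar type 2, 0.96 for endothelial, 0.41 for mesenchymal and 0.71 for white blood cell genes, against 0.08 for the multiciliated markers. Alveolar type 2 genes were lowest in replicate 1 (-0.57) and highest in replicate 5 (0.57), and white blood cell genes likewise (-0.43 and 0.28). Endothelial genes were lowest in replicate 1 (-0.53) and highest in replicate 3 (0.43), as were mesenchymal genes (-0.17 and 0.24). On the brightest probe sets replicate 3 was the highest array for 7 Cfap genes and the lowest for 8. Replicates 1 and 4 were the highest for 7 and 8. Of the genes highest in replicate 3, Cfap43, Cfap65, Cfap69 and Cfap157 were lowest in replicate 1, and Cfap36, Cfap47 and Cfap54 in replicate 2. The other probe sets of Cfap43 were also highest in replicate 3, and lowest in replicate 1 or 2. Those of Cfap54 and Cfap69 were highest in replicate 1. The part of these other cells in the Cfap levels was not tested.

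Most other genes of the axoneme were above background as well. Of the genes listed for dynein arms 22 of 23 measured ones were above background, for radial spokes, the nexin link and the ruler 21 of 23, for the central pair 15 of 16 and for the doublet lumen 15 of 18. The exceptions were Dnah17, a dynein heavy chain of sperm, at 4.54 ± 0.11, Rsph6a at 5.37 ± 0.25, Fbxl13 at 5.67 ± 0.36, Spag6, Dusp21 at 3.39 ± 0.16, Tex43 at 4.75 ± 0.08 and Tex37 at 5.44 ± 0.20, the last 2 named for expression in the testis. All 14 measured genes of intraflagellar transport named Ift were above background. Of the 119 genes named Ccdc for a coiled-coil domain, a name not given for the cilium, 88 were (73.9%), against 24 of 25 Cfap genes (96.0%). The difference between these shares was not tested, and a further limit is that the brightest of several probe sets was read for every gene.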

How the data were processed

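Total RNA of GFP+ cells from 5 samples was amplified with the Ovation kit, labelled with biotin and hybridised to Affymetrix mouse arrays. The authors analysed the arrays with Bioconductor and deposited a table with a log2 value for every probe set on each array. That the scale is log2 was judged from its span (2.37 to 15.11). The methods used to summarise probes and normalize arrays are not given in the sources used here, and the medians of the arrays lay between 7.18 and 7.26. Samples were grouped from their titles.

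After 64 control probe sets were left out, 34945 of 45037 probe sets named 1 gene through the platform's annotation, 932 named several and were not used, and 9160 named none here. Symbols were checked by Entrez identifier against the GRCm38.p6 gene table (99.4% matched, 0 changed). Each gene was read from its probe set with the highest mean. Means were fitted by limma 3.58.1 in R 4.3.3 (lmFit, eBayes, intercept only) and tested one-sided against the background level of 7.15 or against 5, with Benjamini-Hochberg adjustment over 45037 probe sets. Of the 148 background genes 5 were themselves called. The test was checked on simulated data. Other calculations used Python 3.11.15, numpy 2.4.6, pandas 2.3.3 and scipy 1.17.1. The number of arrays, 5, limits the precision.

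All members are named. Values per array are given for those that missed a test, the 6 with the largest and the 4 with the smallest SD, those with probe sets on both sides of the background level and others of each group; genes that missed the test in other lists were named after their values were seen. The members, lists, motifs and tests were chosen with earlier results of these data known. Alternatives were another reading of several probe sets, another normalization, background or test, each replicate left out, and a shorter promoter window.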

Additional observations from a re-analysis of the deposited data

How the results depend on the processing

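Over all alternatives run, the number of Cfap genes above background lay between 19 and 24 of 25 and the number above the cut-off, including a cut-off of 6, between 23 and 24. The lowest counts came from reading the probe set with the lowest mean of each gene, under which 40.3% of all genes were above background. With that reading Cfap20dc, Cfap298, Cfap57, Cfap70 and Cfap97 lay below background (-2.33, -0.49, -0.16, -0.38 and -0.44 from it), because another probe set was read. With the background at the 99th percentile Cfap47 lay below it (-0.27), since the level itself was higher. No call was lost in any of the 5 fits that left out a replicate. The median SD of the Cfap genes was 0.171 with the probe set of the lowest mean, beside 0.20 over all genes. Over the 5 fits that left out a replicate it lay between 0.0742, without replicate 1, and 0.121, beside 0.16 to 0.18 over all genes. A full X-box was found in 3 of 19 Cfap genes, and in 0.759% of all genes, when only 150 bases before the start and the 50 after it were searched. With up to 1 mismatch in its 9 fixed letters, a choice made after seeing the data, it was found in 6 of 19 Cfap genes, with Cfap57 and Cfap206 added, and in 7.06% of all genes. No paired analysis was possible because there is only 1 group.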

Other observations

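Of the 34 genes whose symbols begin with Cfap and a digit in the GRCm38.p6 gene table, the 9 others are not analysed here. A further 3 genes carry such a name as a synonym only and were not counted as members. Wdr66, also called CFAP251, gave 13.29, 13.17, 13.49, 13.55 and 13.47 in replicates 1 to 5. Maats1, also called CFAP91, gave 12.52, 12.55, 12.77, 12.67 and 12.46. Both proteins belong to the complex at the spoke base that also holds Cfap61. Ppip5k2, an inositol phosphate kinase listed with the synonym Cfap160, was at 10.10 ± 0.14 (SD, n = 5 arrays). All 3 were above background (adjusted p = 7.44e-11, 8.48e-11 and 2.13e-09, limma). In Wdr66 replicates 1 and 2 were the lowest arrays, as in Cfap43, and not in Cfap61, where replicate 1 was the highest on the brightest probe set.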
